A study of Mus musculus with 9 samples.

Results

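The miR-34 and miR-449 family was followed in the hippocampus of mice that received saline, LPS or LPS and GAS. Its members here were the 6 mature miRNAs mmu-miR-34a-5p, mmu-miR-34b-5p, mmu-miR-34b-3p, mmu-miR-34c-5p, mmu-miR-34c-3p and mmu-miR-449a-5p, written below without the species prefix. They were chosen by name from the 1448 rows of the count table, with earlier results of these data known. All 6 had 10 reads or more in at least 3 of the 9 libraries and were tested, as were 628 rows in all. The study compared a saline group, an LPS group and an LPS + GAS group, with 3 small RNA libraries each, from the hippocampus of adult male C57BL/6J mice. LPS, an endotoxin of Escherichia coli, was injected intraperitoneally as a single dose of 1 mg/kg in both LPS-treated groups. GAS (gastrodin) is a phenolic glucoside from the rhizome of Gastrodia elata. It was given at 100 mg/kg, by the labels 1 h after LPS, while the methods name both concurrent injection and this interval. The abstract of the paper places GAS before LPS. The saline group received 0.9% saline, and the labels of the LPS group name 0.12% saline. None of the sources used here states whether a library held a single animal, so the tests measure the spread between these libraries, which may be partly technical.

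miRNAs with the same seed, bases 2 to 8 from the 5′ end, tend to bind the same target sites in mRNAs. The miR-34b/miR-34c and miR-449 clusters are known from multiciliated cells, which carry many motile cilia, among them the ependymal cells that line the brain ventricles and the epithelial cells of the choroid plexus. In such cells both clusters act together on transcripts that hold back the making of basal bodies, and mice that lack both have too few motile cilia. miR-34a is made from a separate gene, is expressed in many cell types including neurons, and is induced by p53. It served as the contrast within the family.

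The sequences below are shown because the shared seed is what makes these miRNAs a family. They are written 5′ to 3′ as in the deposited table, with the seed in capitals. The 5p members carried the same seed, which 5 rows of the whole table had, the fifth being miR-449c-5p.
miR-34a-5p: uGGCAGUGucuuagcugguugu
miR-34b-5p: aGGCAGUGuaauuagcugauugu
miR-34c-5p: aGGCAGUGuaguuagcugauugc
miR-449a-5p: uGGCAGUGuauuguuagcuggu
miR-449c-5p: aGGCAGUGcauugcuagcugg
The 3p members had another seed, found in only these 2 rows of the table.
miR-34b-3p: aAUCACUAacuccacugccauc
miR-34c-3p: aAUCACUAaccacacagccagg
miR-34a-5p and miR-449a-5p were identical from base 1 to base 9, and miR-34c-5p and miR-449a-5p from base 2 to base 10. miR-34b-5p differed from miR-34c-5p at 2 of 23 positions, G11A and C23U, with the base of miR-34c-5p first and positions counted from the 5′ end. The 3p arms of miR-34c and miR-34b differed at 5 of 22 positions (C11U, A12C, A16U, G21U and G22C). How the counting treated a read that fits both miR-34b and miR-34c is not stated in any source used, so the split between these near-identical pairs is uncertain. RefSeq held a mature entry for 5 of the 6 members, all with the sequence of the table, and none was found for miR-34c-5p.

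In the GRCm38.p6 genome, the hairpin of miR-34a lies at chr4:150068454-150068555 on the plus strand and overlaps an exon of Gm37795, an unreviewed transcript. The hairpins of miR-34c (chr9:51103034-51103110) and miR-34b (chr9:51103562-51103645) both lie on the minus strand, 451 bases apart, within an intron of Btg4, which is on the opposite strand. The hairpin of miR-449a (chr13:113037534-113037624) lies on the plus strand in an intron of Cdc20b, a gene known from multiciliated cells. The hairpin of miR-449c (chr13:113035983-113036091) lies 1442 bases before it in the same gene. The 6 members therefore come from 3 loci, and the 4 miR-34b and miR-34c rows are neighbours that are known to be cut from a shared precursor transcript.

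The libraries held 10119758 to 11457656 reads on miRNAs. Levels are given as CPM, counts per 1e6 of a library's total after edgeR's TMM scaling, and mature miRNAs of 22 or 23 bases are compared without a correction for length. The lowest count of any member in any library was 376 reads. The known neuronal miRNAs miR-124-3p, miR-9-5p, miR-128-3p and miR-132-3p summed to 76576 to 117980 CPM. No other tissue was compared, so this sum does not check that the tissue was hippocampus. Libraries of a group were not copies of each other: chi-square over its degrees of freedom between counts was at least 278 for every pair.

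miR-34a-5p was the most abundant member, with a mean of 2812 ± 1235 CPM (SD, n = 9 libraries), and ranked 49th of the 628 miRNAs tested. miR-34b-3p followed with 420 ± 391 CPM, then miR-34c-5p with 221 ± 222 CPM, miR-34c-3p with 206 ± 196 CPM and miR-34b-5p with 166 ± 164 CPM. miR-449a-5p was lowest, with 44.9 ± 6.87 CPM. The SDs of neighbours in this order overlapped among the miR-34b and miR-34c rows, although within each of the 9 libraries miR-34b-5p was below both miR-34b-3p and miR-34c-5p. miR-34a-5p lay above every other member in each of the 9 libraries, since its lowest level (1480 CPM) exceeded the highest of miR-34b-3p (1347 CPM).

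**Figure D1:**
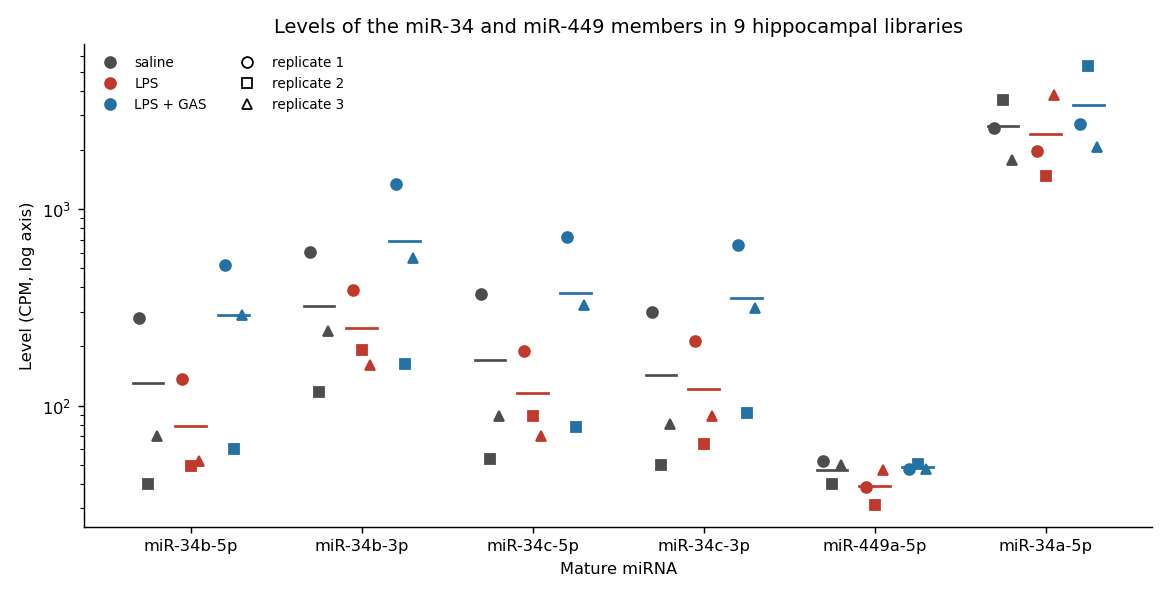
Level of each member (CPM, log axis) in each of 9 libraries; colours give the group, marker shapes the replicate number and short lines the mean of 3 libraries. The miR-34b and miR-34c rows spread over 11.5-fold to 13.6-fold with replicate 1 highest in each group, while miR-449a-5p stayed between 31.2 and 52.2 CPM.

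miR-34c-5p, the arm that carries the family seed, was at 371, 53.5 and 88.4 CPM in saline replicates 1 to 3. Its levels after LPS were 189, 88.6 and 69.6 CPM, and after LPS + GAS 725, 77.6 and 326 CPM. Replicate 1 was thus the highest library of each group, LPS + GAS replicate 3 was also high, and the groups overlapped. The highest level was 13.6 times the lowest.

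The other rows of the cluster had the same libraries on top. miR-34b-5p was at 279, 39.8 and 69.9 CPM in the saline group, at 136, 49.4 and 52.0 CPM with LPS, and at 517, 60.2 and 290 CPM with LPS + GAS. miR-34b-3p was at 608, 118 and 241 CPM, at 388, 192 and 161 CPM, and at 1347, 163 and 564 CPM in the same order, and miR-34c-3p at 299, 50.1 and 80.1 CPM, at 212, 63.8 and 88.4 CPM, and at 655, 91.7 and 313 CPM. For all 4 rows, replicate 1 was highest in each of the 3 groups and the lowest of the 9 libraries was saline replicate 2.

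miR-449a-5p, the member from the other multiciliated-cell cluster, was at 52.2, 39.9 and 49.7 CPM in the saline group. The LPS libraries had 38.5, 31.2 and 47.2 CPM of it, and the LPS + GAS libraries 47.7, 50.2 and 47.8 CPM. Its highest level was 1.67 times its lowest, and LPS + GAS replicate 1, in which miR-34c-5p was highest, was no higher in it than the others of its group. The rest of the miR-449 locus was hardly detected: miR-449c-5p had 0 to 3 reads per library, miR-449a-3p 0 or 1, and miR-449c-3p 0 in all 9. A count of 0 allows up to 3 reads by counting error alone, and miR-449a-5p had 376 to 546 reads per library.

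miR-34a-5p was at 2577, 3582 and 1770 CPM in the saline group, at 1985, 1480 and 3800 CPM with LPS, and at 2697, 5353 and 2068 CPM with LPS + GAS. Its highest library was replicate 2 in the saline and LPS + GAS groups and replicate 3 in the LPS group, never the library with the most miR-34b and miR-34c. Its passenger arm, miR-34a-3p, had 0 to 4 reads per library.

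The spread among libraries of the same group separated the members. On the log2(CPM + 1) scale, the SD within groups was 1.32 for miR-34c-5p and miR-34b-5p, 1.24 for miR-34c-3p and 1.18 for miR-34b-3p, against a median of 0.28 over the 628 miRNAs tested. Only 10 to 14 of the 628 varied more than these 4 rows. Those more variable included miR-1298-5p (SD 2.08), miR-448-3p (2.02) and miR-1264-3p (1.41), whose levels followed miR-34c-5p, as described below. miR-34a-5p had an SD of 0.64, with 47 more variable miRNAs, and miR-449a-5p an SD of 0.21, with 491 more variable. The SD of miR-449a-5p was thus below that of most miRNAs, while that of the miR-34b and miR-34c rows was among the highest.

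Across the 9 libraries the miR-34b and miR-34c rows moved together. Pearson's r on the log2(CPM + 1) scale was 0.97 to 0.99 for the 6 pairs among them, and Spearman's rho 0.83 to 0.98. After Benjamini-Hochberg adjustment over the 15 pairs of members, exact permutation p-values were 8.27e-05 to 0.000400 for r and 0.000744 to 0.0207 for rho. After the 2 libraries farthest from the median were left out, r was 0.94 to 0.99 over 7 libraries, and it was 0.92 to 0.98 over the 6 libraries not numbered 1. The widest step in miR-34c-5p between neighbouring libraries (88.6 to 189 CPM, 2.13-fold) parted replicate 1 of each group and LPS + GAS replicate 3 from the rest. The next (371 to 725 CPM, 1.96-fold) lay among these high libraries. Each smaller set of libraries still held some of the high ones, so r may rest largely on them. Whether the relation holds among the low libraries alone was not tested. Subtraction of the group means left r at 0.97 to 0.99, so the relation lay within the groups.

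The remaining members showed no such relation. miR-449a-5p gave r of 0.32 to 0.42 and rho of 0.23 to 0.45 with the miR-34b and miR-34c rows, with adjusted p-values of at least 0.468 for r by the exact permutation test. Without the 2 farthest libraries its r was 0.076 to 0.38. miR-34a-5p gave r of -0.31 to -0.14 and rho of -0.37 to 0.10 with the same rows (adjusted p of at least 0.527 for r, exact permutation test), and r of -0.39 to -0.31 without the 2 farthest. miR-34a-5p and miR-449a-5p gave r = 0.46 and rho = 0.33 (adjusted p = 0.461 and 0.482, exact permutation test), and r = -0.13 without the 2 farthest libraries, so their relation rested on those 2. With 9 libraries, moderate correlations cannot be told from none.

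**Figure D2:**
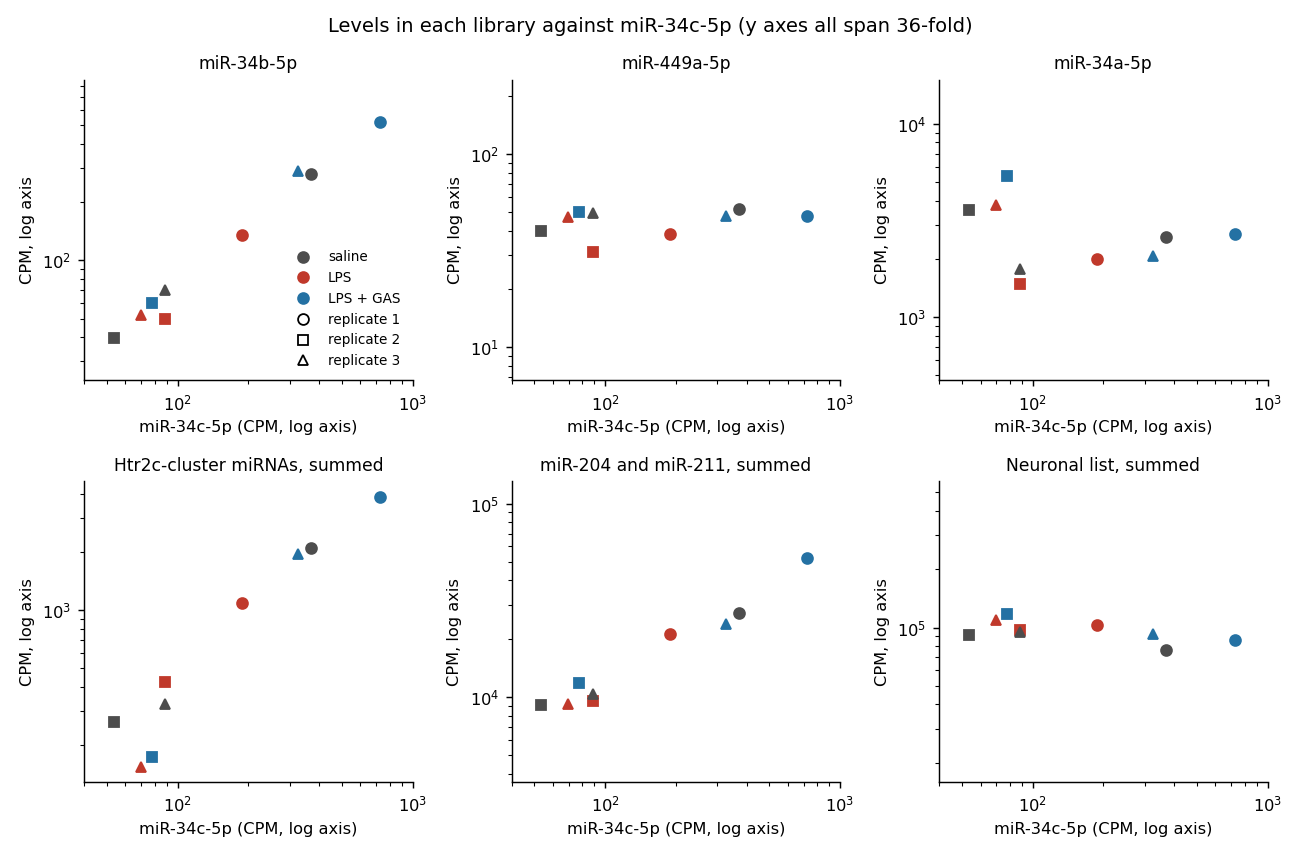
Levels in each of 9 libraries against miR-34c-5p (both axes CPM, log scale; each y axis spans 36-fold), for miR-34b-5p, miR-449a-5p, miR-34a-5p and the summed levels of 3 marker lists; colours give the group and shapes the replicate number. miR-34b-5p, the Htr2c-cluster list and the miR-204 and miR-211 list were higher where miR-34c-5p was higher, while miR-449a-5p, miR-34a-5p and the neuronal list did not.

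Ratios within a library show the same without any scaling between libraries. The 5p/3p ratio of miR-34c was 0.787 to 1.39 over the 9 libraries, a 1.76-fold range, so both arms were recovered in near-equal numbers of reads. That of miR-34b was 0.258 to 0.515, with the 3p arm ahead in all 9 libraries, and miR-34b-5p was 0.558 to 0.891 of miR-34c-5p. By contrast, miR-449a-5p over miR-34c-5p ran from 0.0658 in LPS + GAS replicate 1 to 0.746 in saline replicate 2, an 11.3-fold range. miR-34c-5p over miR-34a-5p ran from 0.0145 in LPS + GAS replicate 2 to 0.269 in LPS + GAS replicate 1, an 18.5-fold range between libraries of the same group.

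**Figure D3:**
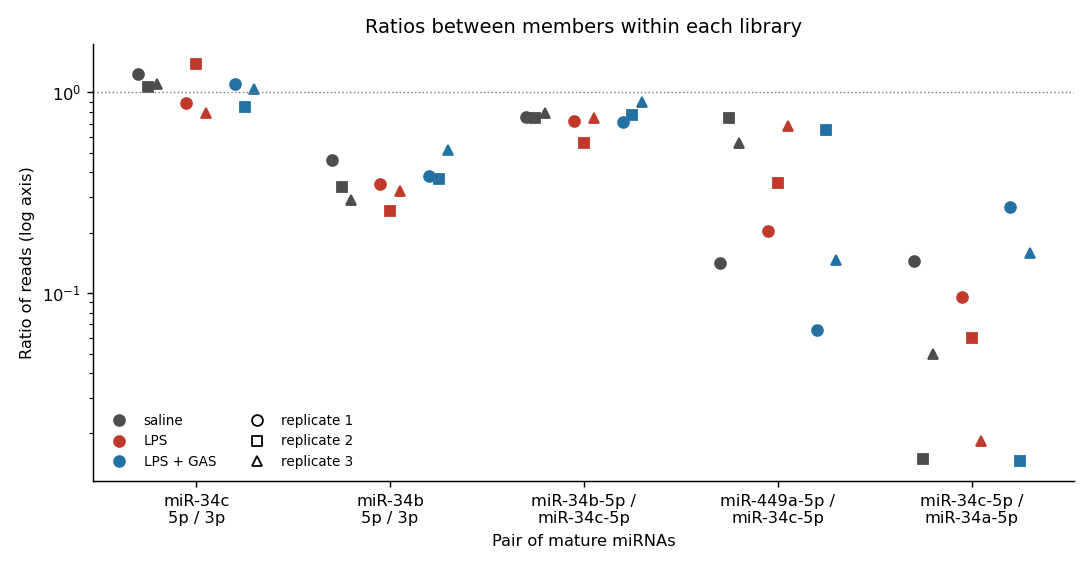
Ratio of reads between pairs of members within each of 9 libraries (log axis; dotted line at 1); colours give the group and shapes the replicate number. The first 3 ratios, among miR-34b and miR-34c rows, stay within 2.00-fold, and the ratios to miR-449a-5p and miR-34a-5p range over 11.3-fold and 18.5-fold.

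The 5 ratios were compared in 3 contrasts by exact two-sided permutation tests, 15 in all. With 3 against 3 libraries no p can fall below 0.1, so these tests could not show a difference between groups, and the values are given as descriptions. That smallest p was reached once, by the 5p/3p ratio of miR-34b in LPS + GAS vs LPS. It was 0.384, 0.370 and 0.515 in the LPS + GAS group against 0.350, 0.258 and 0.324 in the LPS group, without overlap, a difference of 0.44 on the log2 scale (exact permutation p = 0.1, adjusted p = 0.818). The 5p/3p ratio of miR-34c differed by 0.0024 in the same contrast (exact permutation p = 1.0, adjusted p = 1.0). miR-449a-5p over miR-34c-5p differed by -0.99 in LPS + GAS vs LPS and by -1.08 in LPS + GAS vs saline (exact permutation p = 0.4 and 0.5, both 0.818 after adjustment). These differences were -0.25 and -0.34 without LPS + GAS replicate 1, and -1.90 and -1.99 without LPS + GAS replicate 2.

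The comparison of LPS vs saline asked what the endotoxin changed in the hippocampus. By edgeR's quasi-likelihood test, 0 of the 6 members were called, against 0.0% of all miRNAs tested. A call needed an adjusted p no higher than 0.05 and a log2 fold change of 1 or more in either direction. By unadjusted p under 0.05, 15 of the 628 (2.39%) passed but no member, and DESeq2 called 1 miRNA and limma-voom 0, again no member. miR-34c-5p averaged 116 ± 64.1 CPM with LPS and 171 ± 174 CPM with saline (SD, n = 3), a log2 fold change of -0.56 ± 0.84 (SE; edgeR, adjusted p = 0.992). The 4 miR-34b and miR-34c rows had log2 fold changes of -0.71 to -0.24. Without saline replicate 1, all 4 turned positive, at 0.50 to 0.93, so their sign rested on that library. miR-449a-5p gave -0.28 ± 0.20 with means of 39.0 ± 7.98 and 47.2 ± 6.49 CPM, and miR-34a-5p -0.13 ± 0.44.

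The comparison of LPS + GAS vs LPS asked what gastrodin changed in mice given LPS. Again 0 of 6 members were called, against 0.0% of all miRNAs tested. At an unadjusted p under 0.05, 23 miRNAs (3.66%) passed in this contrast but no member, and DESeq2 and limma-voom called 0. The 4 miR-34b and miR-34c rows had log2 fold changes of at least 1, which 3.5% of the 628 miRNAs reached. These 4 are products of neighbouring hairpins whose levels were closely correlated across the 9 libraries, and they are not 4 separate measurements. miR-34b-5p was at 289 ± 229 CPM in the LPS + GAS group and at 79.1 ± 49.1 CPM in the LPS group, a log2 fold change of 1.87 ± 0.84 with a 95% interval of -0.0023 to 3.75 (edgeR, adjusted p = 0.903). miR-34c-5p gave 1.70 ± 0.84, miR-34c-3p 1.54 ± 0.80 and miR-34b-3p 1.49 ± 0.75, all with the same adjusted p. Without LPS + GAS replicate 1 these 4 values were 0.56 to 1.14, and without LPS replicate 1 they were 1.97 to 2.51.

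miR-449a-5p averaged 48.5 ± 1.41 CPM with LPS + GAS and 39.0 ± 7.98 CPM with LPS alone. Its log2 fold change was 0.32 ± 0.20, with a 95% interval of -0.13 to 0.77. The 3 LPS + GAS libraries lay above the 3 LPS libraries, by 47.7 against 47.2 CPM where they came closest, a separation that 8.6% of the 628 miRNAs had in either direction in this contrast. miR-34a-5p gave a log2 fold change of 0.48 ± 0.44, and turned to -0.023 without LPS + GAS replicate 2.

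In LPS + GAS vs saline, which shares its LPS + GAS libraries with the comparison above, 0 of 6 members were called, while 1 of 628 miRNAs was (0.159%), miR-21a-3p, by edgeR and also by DESeq2 and limma-voom. At an unadjusted p under 0.05, 21 miRNAs (3.34%) passed but no member in this fit, which has no replicate block. The miR-34b and miR-34c rows had log2 fold changes of 1.10 to 1.30, all at least 1, which 1.75% of all miRNAs reached. miR-34c-3p had the largest, 1.30 ± 0.80 (353 ± 284 against 143 ± 136 CPM; edgeR, adjusted p = 0.998). Without LPS + GAS replicate 1 the 4 values fell to 0.21 to 0.53, and without saline replicate 1 they were 1.99 to 2.48. miR-449a-5p gave 0.039 ± 0.20, with a 95% interval of -0.41 to 0.49, and miR-34a-5p 0.35 ± 0.44.

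Same-numbered libraries deviated together in this contrast, and a fit with the replicate number as a block gave narrower intervals for the miR-34b and miR-34c rows. With the block, miR-34c-3p had a log2 fold change of 1.35 ± 0.28 with a 95% interval of 0.69 to 2.01, and miR-34b-5p of 1.24 ± 0.40 with an interval of 0.31 to 2.17. miR-34c-5p gave 1.21 ± 0.44 (0.19 to 2.23) and miR-34b-3p 1.01 ± 0.38 (0.13 to 1.90). The intervals of all 4 rows lay above 0, with unadjusted edgeR p-values of 0.00188 to 0.0311, where 23 of the 628 miRNAs had an unadjusted p under 0.05. After adjustment none was called (lowest adjusted p = 0.393 by edgeR). The 4 rows are not 4 separate measurements. This fit used all 9 libraries, and what the replicate numbers stand for is not stated. Deviations of LPS libraries correlated with same-numbered saline libraries at 0.32, 0.21 and -0.28, and with LPS + GAS libraries at -0.11, 0.047 and -0.27. miR-449a-5p, at 0.054 ± 0.20, and miR-34a-5p, at 0.32 ± 0.46, kept intervals that include 0.

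**Figure D4:**
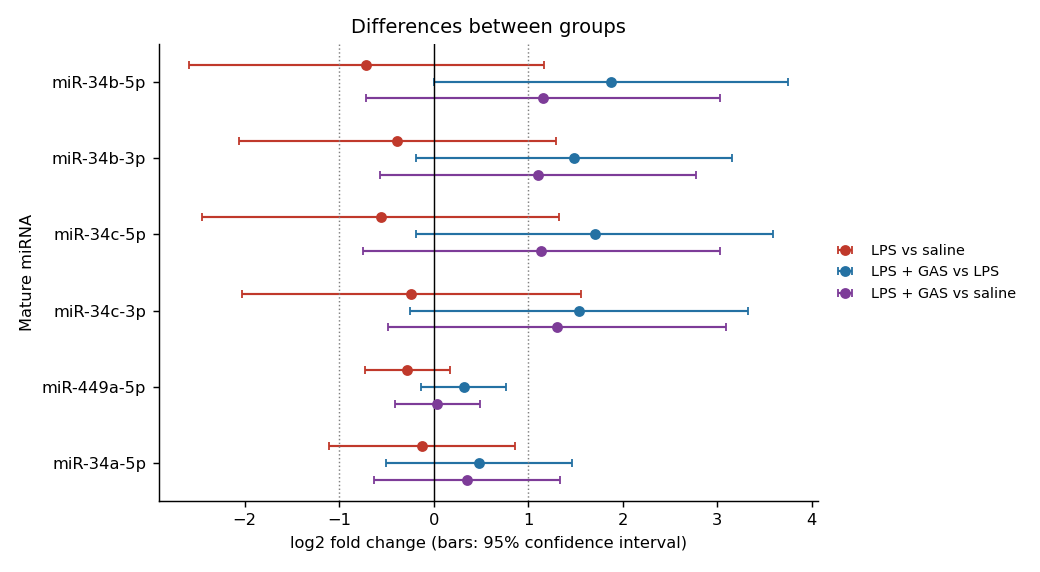
Log2 fold change of each member in 3 contrasts, with 95% confidence intervals from edgeR's fit without a replicate block; dotted lines mark -1 and 1. Every interval of this fit includes 0, and those of the miR-34b and miR-34c rows are several times as wide as that of miR-449a-5p.

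Without the block, the limits were tight for miR-449a-5p and wide for the miR-34b and miR-34c rows. For miR-449a-5p all 3 intervals lay between -0.73 and 0.77, within the threshold of 1. For the miR-34b and miR-34c rows the intervals reached from -2.59 to 3.75.

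Of the miRNAs outside the family, the 5 whose levels followed miR-34c-5p most closely over the 9 libraries were miR-204-5p (r = 0.98), miR-448-3p (r = 0.97), miR-1264-3p (r = 0.97), miR-1298-5p (r = 0.96) and miR-1912-3p (r = 0.94). Each point is a whole library, whose depth and tissue composition all its miRNAs share, and these values are descriptions without a test. miR-204-5p, made from an intron of Trpm3, was at 26893, 8994 and 10325 CPM in the saline group, at 20913, 9478 and 9098 CPM with LPS, and at 51934, 11645 and 23721 CPM with LPS + GAS. miR-448, miR-1264, miR-1298 and miR-1912 come from introns of Htr2c, whose serotonin receptor is abundant in choroid plexus epithelium. miR-1298-5p ranged from 81.8 CPM in LPS replicate 3 to 3053 CPM in LPS + GAS replicate 1, and miR-1912-3p had at most 17 reads.

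For miR-34a-5p the closest were miR-151-5p (r = 0.90), miR-15a-5p (r = 0.89), miR-551b-5p (r = 0.87), miR-195a-3p (r = 0.87) and miR-16-5p (r = 0.86). None of these 5 was among the 5 closest to miR-34c-5p. They covered narrower ranges than miR-34a-5p, for example 821 to 1545 CPM for miR-15a-5p.

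Lists of miRNAs known from particular cell types were compared as sums per library. Among these types is choroid plexus epithelium, named above with the multiciliated cells. The 10 miRNAs of the Htr2c cluster, a list for choroid plexus epithelium, summed to 264 to 2086 CPM among saline, 154 to 1091 CPM among LPS and 174 to 3861 CPM among LPS + GAS libraries, and the sum had r = 0.96 with miR-34c-5p on the log2 scale. miR-204 and miR-211, abundant in the same epithelium, summed to 9045 to 27037, 9137 to 21031 and 11720 to 52096 CPM (r = 0.98). Both sums are led by rows already picked for their high r to miR-34c-5p. miR-204-5p averaged 19222 CPM, against 79.7 CPM for miR-204-3p and 24.3 CPM for miR-211-5p, and miR-1298-5p led the Htr2c cluster with 832 CPM. The r of the sums is therefore not separate from the r of those rows. In both lists the 4 highest libraries were replicate 1 of each group and LPS + GAS replicate 3, the same 4 as for miR-34c-5p. The part of choroid plexus epithelium in the levels of miR-34b and miR-34c was not tested, and in bulk tissue more cells of a type and more RNA per cell cannot be told apart.

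The medians of these lists differed between groups too. In LPS + GAS vs LPS, the 8 tested miRNAs of the Htr2c cluster had a median log2 fold change of 1.40 and the 3 tested of miR-204 and miR-211 a median of 1.14, against 0.0030 over all miRNAs tested. Of the 8, 7 were above 0, and the values ran from -0.069 ± 0.53 for miR-1298-3p to 2.26 ± 1.40 for miR-1912-3p (SE). The median of the 5 tested miRNAs on the multiciliated list was 1.54. This is a value of the 4 miR-34b and miR-34c rows, at 1.49 to 1.87. The other locus of the list did not share it, with miR-449a-5p at 0.32 here and at 0.039 in LPS + GAS vs saline. None of these miRNAs was called in either direction in any contrast. In LPS + GAS vs saline the medians were 0.86, 0.84 and 1.14, against -0.028, and in LPS vs saline -0.54, -0.23 and -0.38, against -0.045. The list for multiciliated cells had 8 rows in the table, of which 3, the miR-449c arms and miR-449a-3p, were at or near 0.

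The other lists did not follow miR-34c-5p closely. The correlation over the 9 libraries was -0.44 for the epithelial miR-200 family, -0.62 for the neuronal list, 0.21 for oligodendrocytes, 0.22 for endothelium, 0.35 for red blood cells and 0.60 for microglia and leukocytes. Red blood cell miRNAs summed to 4541 to 6175 CPM in the LPS + GAS group, above the 2150 to 3241 CPM of the LPS group. Their median log2 fold change was 1.04 in LPS + GAS vs LPS. Of single miRNAs, 8.6% of the 628 separated in this contrast in either direction. The saline sums, 2025 to 4267 CPM, overlapped those of the LPS group. None of the 4 was called, and the part of blood in the members' levels was not tested. Microglia and leukocyte miRNAs were low throughout, with at most 56.4 CPM in sum.

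Counted by the shared 5p seed, most reads of the family came from miR-34a-5p. The 5 rows with this seed summed to 2991 ± 904 CPM with saline, 2655 ± 1190 CPM with LPS and 4087 ± 1407 CPM with LPS + GAS (SD, n = 3). miR-34a-5p made up 78.6%, 96.4% and 89.5% of the sum in the saline group, 84.5%, 89.7% and 95.7% in the LPS group, and 67.6%, 96.6% and 75.7% in the LPS + GAS group. Its share was lowest in LPS + GAS replicate 1, where miR-34b-5p and miR-34c-5p were highest. miR-449a-5p never exceeded 2.51% of the sum. The 3p seed of miR-34b-3p and miR-34c-3p summed to 465 ± 390, 368 ± 201 and 1044 ± 885 CPM in the 3 groups, with 64.0% to 75.0% from miR-34b-3p.

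**Figure D5:**
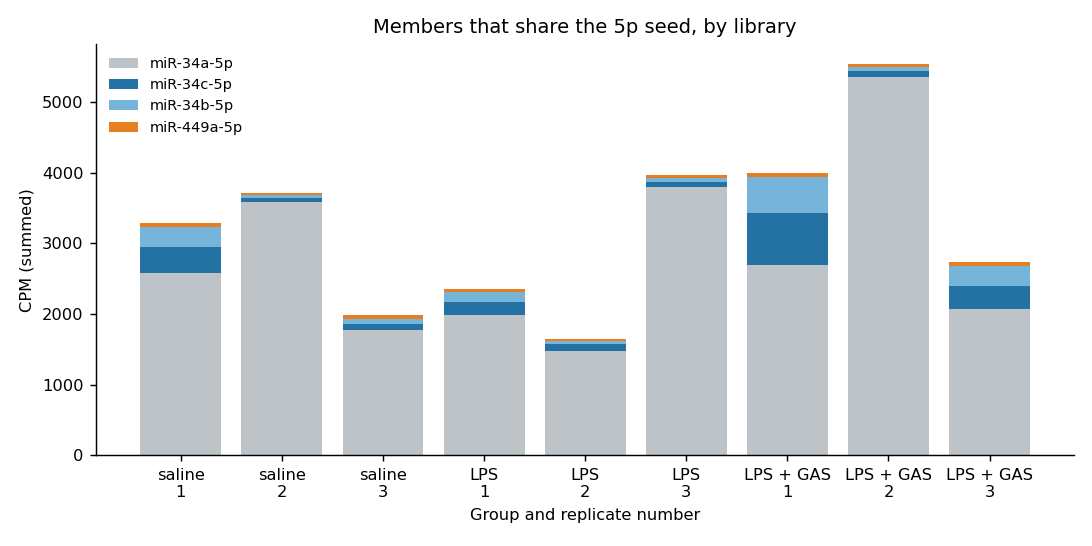
Summed level (CPM) of the 4 members that share the 5p seed in each of 9 libraries, stacked by miRNA. miR-34a-5p makes up 67.6% to 96.6% of each bar, and the miR-34c-5p and miR-34b-5p parts are widest in replicate 1 of each group and in LPS + GAS replicate 3.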

How the data were processed

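Small RNA from the hippocampus was sequenced on a BGISEQ-500 platform. The authors deposited a single table of 1448 mature miRNAs with their sequences, and per library the raw read counts, which are not normalized and were used here. Whole-number exp values, 0 of which exceed the read count, were used as an alternative, since how they were made is not stated. For the members they were 75.4% to 100% of the reads. The share was lowest for miR-34a-5p, the most abundant member. For it the share was 75.4% in LPS + GAS replicate 2, with 52924 reads, and 90.4% in LPS replicate 2, with 17820. Over all miRNAs the exp values totalled 4210219 to 4583427 per library. The table also holds the authors' group averages, log2 fold changes, p-values and q-values, which were not used. The build named in the submitters' processing notes is GRCm38.p6; aligner, counting tool and miRBase release: not given in the sources used here. All per-library columns were matched to samples by name.

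Tests on the counts used edgeR 4.0.16 under R 4.3.3 (TMM factors 0.914 to 1.19, glmQLFit over all 9 libraries, glmQLFTest, Benjamini-Hochberg adjustment over 628 miRNAs). Thresholds followed the study's methods. Standard errors and 95% intervals came from this fit. The members, the lists and the named-miRNA rule (the 5 miRNAs with the highest r to miR-34c-5p and to miR-34a-5p, other family rows, and list members) were chosen with earlier results of these data known. Further miRNAs were named because they were called. Ratios were log2 ratios after 0.5 reads were added to each count, and correlations used log2(CPM + 1), with all orderings of the 9 libraries enumerated (scipy 1.17.1). Hairpins were located by RefSeq and host genes taken from GENCODE M21.

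Alternatives were DESeq2 size factors, no filter, at least 50 reads in 3 libraries, DESeq2 1.42.0, limma-voom (limma 3.58.1), only the 2 groups compared, the replicate number as a block, exp values, 1 read added to each count for the ratios, no minimum fold change, and each library left out. Two-group fits with the block and the omission of the 3 libraries numbered 1 were chosen after the data had been seen. Libraries with the same number deviated together from their group means in LPS + GAS vs saline (correlations of 0.30, 0.33 and 0.37 over 628 miRNAs), which is the only evidence that the numbers pair libraries there. The main fit has no block in any contrast, and the values with the block are given beside those of this contrast. In LPS vs saline the correlations of same-numbered libraries were mixed (0.32, 0.21 and -0.28). In LPS + GAS vs LPS (-0.11, 0.047 and -0.27) such libraries did not deviate together. On simulated counts for LPS vs saline with 619 miRNAs, edgeR recovered 184 of 196 changed by a log2 fold change of 2 and called 7 unchanged ones. The changed miRNAs were drawn at random from all those tested. Recovery of smaller changes, or at the wide spread of the miR-34b and miR-34c rows, was not tested. Reads are not molecules, and no unique identifiers are described, so counts carry counting error and the bias of library preparation between sequences.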

Additional observations from a re-analysis of the deposited data

How the results depend on the processing

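No member was called in any contrast under any of the alternatives, of which there were 19 for each log2 fold change, with adjusted p-values of 0.193 to 1.0. With the replicate number as a block, the miR-34b and miR-34c rows had log2 fold changes of 1.11 to 1.58 in LPS + GAS vs LPS (unadjusted p 0.00200 to 0.0250, where 25 of the 628 miRNAs were under 0.05; lowest adjusted p = 0.530 by edgeR) and of 1.01 to 1.35 in LPS + GAS vs saline (0.00188 to 0.0311, where 23 of the 628 were under 0.05; lowest adjusted p = 0.393). In a block fit of only the 2 groups compared, the lowest adjusted p in LPS + GAS vs saline was 0.193. Same-numbered libraries did not deviate together in LPS + GAS vs LPS. The block changed no call. It turned miR-34c-3p in LPS vs saline to 0.0090, and to 0.046 in the fit of 2 groups. Without the 3 libraries numbered 1, miR-34c-3p and miR-34c-5p in LPS vs saline were 0.22 and 0.15, while the 4 rows stayed at 1.05 to 1.79 in LPS + GAS vs LPS and at 1.02 to 1.68 in LPS + GAS vs saline.

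The number of miRNAs called in LPS vs saline was 2 with no filter (miR-532-3p besides miR-21a-3p) and 1 with DESeq2 (miR-21a-3p), and 0 to 1 with a library left out: 1 without LPS replicate 2 (miR-532-5p) and 1 without LPS + GAS replicate 3 (miR-21a-3p). In LPS + GAS vs LPS it was 0 to 1, with 1 without LPS replicate 2 (miR-532-5p). In LPS + GAS vs saline it was 0 without the 3 libraries numbered 1. The cause was not tested.

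With each library left out, log2 fold changes in LPS vs saline ranged from -0.61 to 0.20 for miR-34a-5p, from -0.87 to 0.50 for miR-34b-3p, from -1.35 to 0.56 for miR-34b-5p, from -0.91 to 0.93 for miR-34c-3p and from -1.11 to 0.74 for miR-34c-5p. miR-34a-5p ranged from -0.023 to 0.96 in LPS + GAS vs LPS and from -0.15 to 0.70 in LPS + GAS vs saline, and miR-449a-5p from -0.013 to 0.17 in the latter.
With a library left out, differences of log2 ratios ranged from -0.16 to 0.25 for the 5p/3p ratio of miR-34c in LPS + GAS vs LPS and from -0.036 to 0.12 for miR-34b-5p over miR-34c-5p in LPS + GAS vs saline. In LPS vs saline they ranged from -0.82 to 0.38 for miR-449a-5p over miR-34c-5p and from -0.85 to 0.78 for miR-34c-5p over miR-34a-5p. The other 11 differences of ratios kept their direction under the alternatives run. The miR-34b and miR-34c rows had at least 450 reads in every library.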
